A study of Mus musculus with 2 samples.

Results

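Ribosomal protein genes were taken as the protein-coding mouse genes whose symbol is *Rpl* or *Rps* followed by a digit, plus *Rplp0*, *Rplp1*, *Rplp2* and *Rpsa*, without the *Rps6k* kinases, *Rps19bp1* and symbols with -ps. GENCODE release M21 holds 85 such genes, 52 of the large and 33 of the small subunit. Of these, 73 had a listed tag of their own, among 14336 genes with such a tag in all. The study compared GC-1spg, a line obtained by transforming type B spermatogonia of a 10-day-old mouse with pSV3-neo, with GC-2spd (ts), a line made from spermatocytes of a 6-week-old mouse with the SV40 large T antigen. Both lines were grown in DMEM with 10% FBS, and 1 digital gene expression (DGE) library was sequenced from each, so the differences lack replication and the tests set 1 library against another rather than germ cell types against each other.

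The ribosome is built from ribosomal RNA and a nearly fixed set of proteins, 1 copy of most of them per particle. Their mRNAs are among the most abundant of a dividing cell, many start with a run of pyrimidines that ties their translation to mTOR signalling, and unassembled ribosomal proteins are degraded. Male germ cells are known for paralogues of some of these genes that are switched on around meiosis, *Rpl10l* and *Rpl39l* among them.

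The libraries held 5072149 clean tags for GC-1spg and 4726808 for GC-2spd (ts). A DGE tag is CATG, the site cut by *Nla*III, with the 17 bases after it. Levels are given as TPM, copies scaled to the clean tags of a library as the deposited files do. A tag comes from the cDNA fragment at the 3′ end, so levels are not scaled by length. The tags at every CATG site of a gene are summed. Of 15 germ cell markers 4 were listed, with a summed level of 79.7 TPM for GC-1spg and 30.9 TPM for GC-2spd (ts), and *Ddx4*, *Dazl*, *Sycp1* and *Sycp3* were not listed in either line. Nearly all of these sums came from *Uchl1* (329 and 66 tags) and *Dazap1* (73 and 76 tags), and the lower sum in GC-2spd (ts) came from *Uchl1*. *Spo11* (2 and 0 tags) and *Tdrd1* (0 and 4 tags) had few tags. Of 10 fibroblast and mesenchyme markers 8 were listed, at summed levels of 3307 and 2389 TPM. At the false discovery rate (FDR) used below, 5 of these were higher and 2 lower in GC-2spd (ts), and the lower sum there came from the collagen gene *Col1a1* (10465 and 2425 tags) and *Dcn* (710 and 2 tags). The Sertoli list (4 of 6 listed, 135 and 38.9 TPM), the Leydig list (2 of 5 listed, 0.789 and 1.06 TPM) and the peritubular myoid list (4 of 4 listed, 13.0 and 122 TPM) had lower sums than the fibroblast list. Within the Sertoli list *Wt1*, at 620 and 0 tags, and *Gata4*, at 29 and 138 tags, went opposite ways. Each library averages over the cells of 1 cultured line, so differences among those cells cannot be seen. What part these marker differences have in the values of the ribosomal protein genes was not tested.

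The tags of 3 genes are shown first, because the widest differences of the family rest on them. For *Rpl26*, *Rps28* and *Rps13*, 1 of the libraries held an abundant tag that matched no transcript, and its 17 bases after CATG followed, in that gene alone, a site that is 1 base away from CATG in the reference. The lines give that tag, the reference at the same place (GRCm38) and the most abundant tag that follows a reference CATG, with the first 4 bases in capitals.
Rpl26 unmatched tag: CATGcacggctttcattaaag
Rpl26 reference, chr11:68904502-68904522, plus strand, exon 4, 3′ UTR: CGTGcacggctttcattaaag
Rpl26 tag at CATG, chr11:68903296-68903316, exon 3, coding sequence: CATGtgggcatccaccccagc
Rps28 unmatched tag: CATGgaatgatctgcaactgt
Rps28 reference, chr17:33823071-33823091, minus strand, exon 4, 3′ UTR: CACGgaatgatctgcaactgt
Rps28 tag at CATG, chr17:33823296-33823316, exon 3, coding sequence: CATGgatgacaccagccgctc
Rps13 unmatched tag: CATGgggtggcccaggtccgt
Rps13 reference, chr7:116333058-116333078, minus strand, exon 4, coding sequence: CACGgggtggcccaggtccgt
Rps13 tag at CATG, chr7:116333943-116334099, across exons 1 and 2, coding sequence: CATGcacgctcccgggaaggg
Counted from 1 at the first base of CATG, with the reference base first, the difference was G2A in *Rpl26* and C3T in *Rps28* and *Rps13*.

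The unmatched tag of *Rpl26*, a large subunit protein that also binds the *Trp53* mRNA, was counted 5879 times in GC-1spg against 0 times in GC-2spd (ts). Its tag at the reference CATG site was counted 0 times in GC-1spg against 3065 times in GC-2spd (ts), the opposite pattern. Each library thus held 1 of the tags and not the other.

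For *Rps28*, a small subunit protein near the exit of the mRNA channel, the unmatched tag had 7789 copies in GC-1spg against 5 in GC-2spd (ts). The tag at its reference CATG site had 13 copies in GC-1spg against 2550 in GC-2spd (ts). As in *Rpl26*, the unmatched tag was that of GC-1spg and the reference tag that of GC-2spd (ts).

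In *Rps13*, a small subunit protein, the sides were exchanged and GC-2spd (ts) held both tags. The unmatched tag had 0 copies in GC-1spg against 1295 in GC-2spd (ts), where it made up 77.6% of the copies of the pair. The reference tag had 2815 copies in GC-1spg against 374 in GC-2spd (ts).

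In all 3 genes the unmatched tag lay nearer the 3′ end of the transcript, by 161 bases in *Rpl26*, 145 in *Rps28* and 163 in *Rps13*, with 0 CATG sites of the reference in between. Among the tags of all genes that matched nothing and lay 1 base from CATG in 1 gene, 9 reached 1000 copies over both libraries, 5 of those had at most 5 copies in 1 of the libraries, and 3 of the 5 were these. The genomes of the lines were not analysed here, and why the tags differ was not tested.

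**Figure D1:**
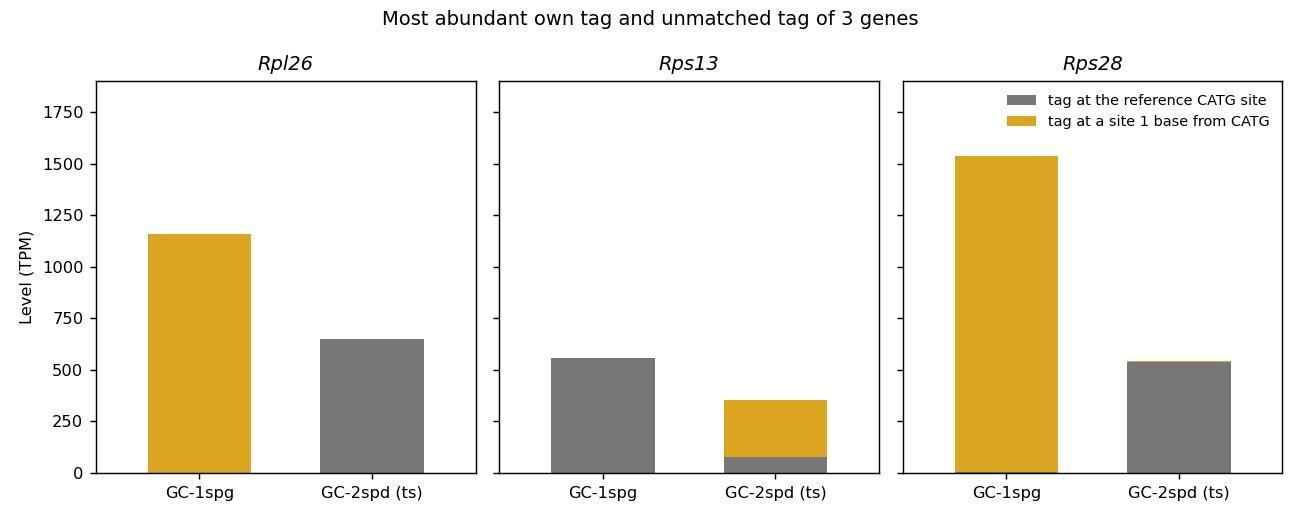
Level in TPM (vertical axis, from 0) of the most abundant tag at a reference CATG site (grey) and of the unmatched tag 1 base from CATG (yellow, stacked on it) for Rpl26, Rps13 and Rps28 in the library of GC-1spg and that of GC-2spd (ts). GC-1spg shows the yellow tag alone for Rpl26 and almost alone for Rps28, GC-2spd (ts) shows both for Rps13, and the stacked level is lower in GC-2spd (ts) for each gene.

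Counted by the tags that belong to 1 gene only, called own tags here, the family held 271198 tags in GC-1spg against 236434 in GC-2spd (ts), or 5.35% (exact 95% binomial interval 5.33 to 5.37) and 5.002% (4.98 to 5.02) of the clean tags. Intervals and limits cover counting error only. Levels ran from 0.394 to 4696 TPM among listed genes of GC-1spg, with a median of 361 TPM, and from 0.423 to 3816 TPM in GC-2spd (ts), with a median of 504 TPM. The family took 18 of the 50 highest places among all genes in GC-1spg against 16 in GC-2spd (ts).

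Own tags leave out much of the family, since close copies of ribosomal protein genes lie across the genome. In 32 of the 85 genes, 24 of them listed, the tags shared with other genes outnumbered the own tags. A combined count was therefore made, an addition chosen after the data had been seen: own tags, tags whose best sense matches hold 1 ribosomal protein gene and at most 5 other genes, and the unmatched tags 1 base from CATG. It covers 81 genes, 78 of them with at least 100 tags, and the share of the clean tags was 9.95% in GC-1spg (9.93 to 9.98) and 9.58% in GC-2spd (ts) (9.55 to 9.60). Some of the shared tags may come from the other gene they match, so the combined count is less specific than the own tags.

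With the combined count, *Rplp1* of the P stalk stood highest, at 5774 TPM in GC-1spg against 5532 TPM in GC-2spd (ts). By the mean of the libraries *Rpl19* followed at 4696 and 3816 TPM, then *Rpl21* at 4345 and 3921 TPM, while in GC-2spd (ts) alone *Rplp2*, at 3931 TPM, and *Rpl21* stood above *Rpl19*. *Rps29* led the small subunit with 3124 and 3031 TPM. The log2 ratios of *Rplp1*, *Rpl19*, *Rpl21* and *Rps29* lay between -0.30 and -0.04, and that of *Rplp2* was -0.009. At the low end of the genes counted in both libraries, *Rpl35a* reached 8.87 and 8.67 TPM, *Rpl6* 16.2 and 13.1 TPM and *Rps4x* 25.8 and 26.0 TPM. The most abundant tags of *Rpl35a* (16 and 15 copies) and *Rpl6* (64 and 51 copies, shared with *Gm26205*) lie in non-coding transcripts. Whether the coding mRNAs of these genes are missed by the tags counted was not tested, so the low values need not be low mRNA levels. *Rpl21*, *Rpl35a*, *Rpl6* and *Rps10* are named here after their values were seen. The plot of combined levels orders the genes by their mean.

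**Figure D2:**
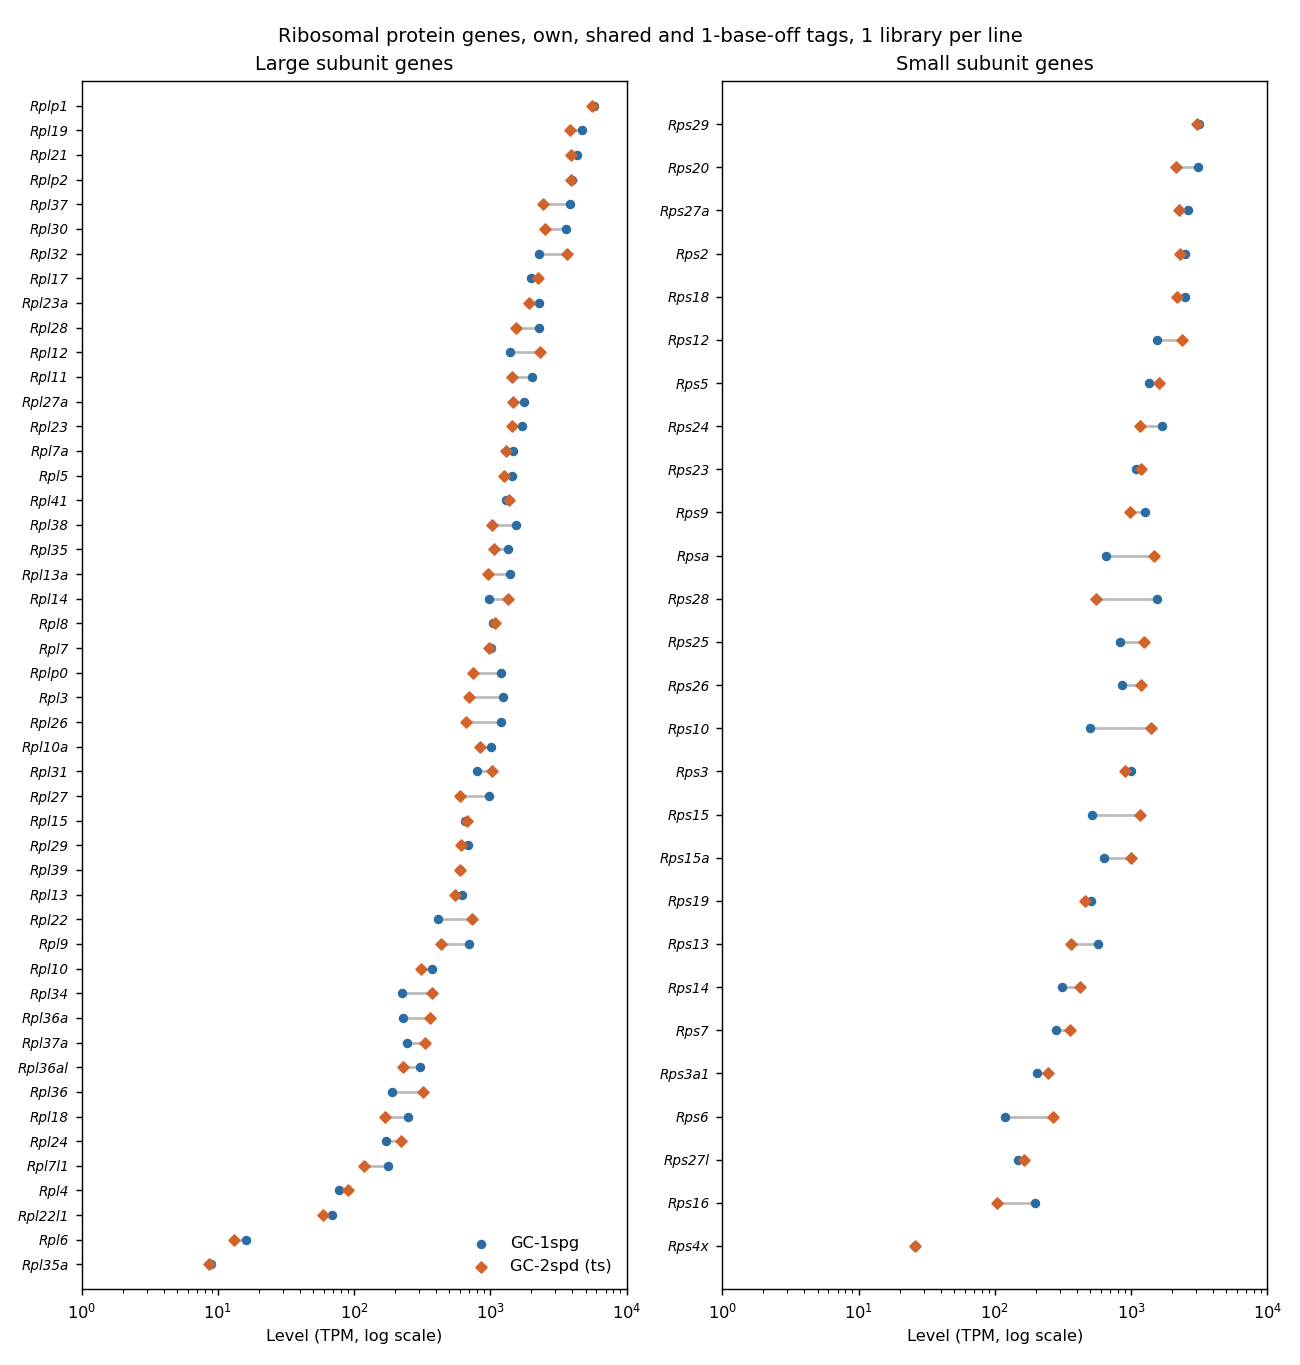
Combined level in TPM (horizontal axis, log scale) of 75 ribosomal protein genes counted in both libraries, large subunit left and small subunit right, ordered by mean; circles, GC-1spg; diamonds, GC-2spd (ts); 1 library per line. Above 100 TPM in both libraries lie 70 of them, most pairs of points lie close together, and the widest gaps are those of Rps10, Rps28, Rps15, Rps6 and Rpsa.

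A gene was called different when the two-sided Audic-Claverie test gave an FDR (Benjamini-Hochberg) no higher than 0.001 and its TPM differed at least 2-fold, that is by 1 on the log2 scale. Ratios are given as GC-2spd (ts) over GC-1spg. By own tags, 6 of the 73 listed genes were called higher in GC-2spd (ts), where 11.8% of all 14336 genes were, and 4 were called lower, where 7.93% were. Under TMM scaling, which lowers every log2 ratio by 0.18, the split turned to 3 higher and 5 lower, against 9.01% and 10.1% of all genes. At that FDR and any fold, 18 of the 73 were higher and 25 lower, against 20.5% and 13.1% of all genes. Of the 67 genes listed in both libraries 29 had a positive and 38 a negative log2 ratio, with a median of -0.15, while the median of all 11392 genes listed in both was 0.17. TMM scaling moved these medians to -0.33 and -0.01.

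**Figure D3:**
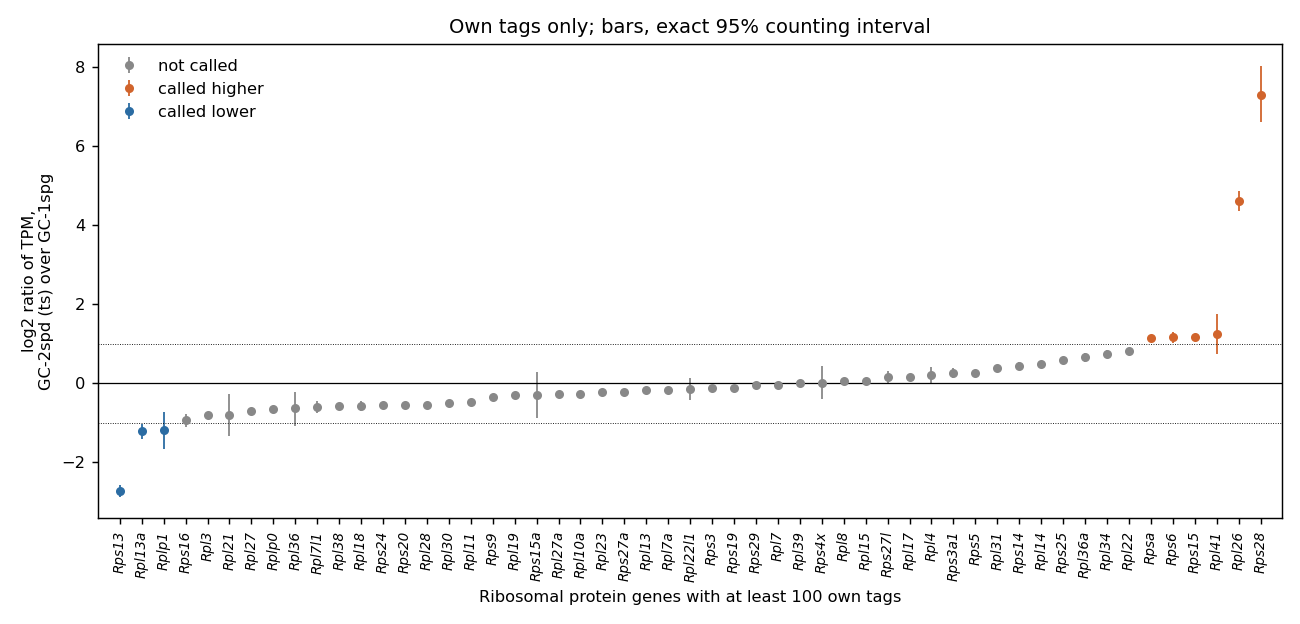
Log2 ratio of TPM, GC-2spd (ts) over GC-1spg (vertical axis), by own tags for 53 ribosomal protein genes with at least 100 own tags in all and a count in both libraries, sorted; points, ratio of the 2 libraries; bars, exact 95% counting interval; dotted lines, the 2-fold threshold. Rps28 at 7.29, Rpl26 at 4.62 and Rps13 at -2.73 stand apart from the rest, which lie between -1.22 and 1.24.

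The 3 genes of the unmatched tags were the extremes of these calls. *Rps28* had 18 own tags in GC-1spg against 2621 in GC-2spd (ts), giving a log2 ratio of 7.29 (6.62 to 8.04). With its unmatched tags it had 7807 and 2628 tags and was called lower, at -1.47 (-1.53 to -1.41). *Rpl26* went from 137 and 3131 own tags (log2 ratio 4.62, interval 4.37 to 4.87), to 6040 and 3149 tags and -0.84 (-0.90 to -0.78), which was no longer called. *Rps13* went from 2883 and 406 own tags, at -2.73 (-2.88 to -2.58), to 2883 and 1701 tags and -0.66 (-0.75 to -0.57), also not called. All 3 were thus lower in GC-2spd (ts) by the combined count, and 2 of them higher by own tags.

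*Rpsa*, *Rps15* and *Rps6*, all of the small subunit, were called higher with either count, and nearly all their tags were their own. The most abundant tag of each is printed to show what the calls rest on.
Rpsa, chr9:120130860-120130880, plus strand, exon 5, coding sequence: CATGcctgatctttacttcta
Rps15, chr10:80293828-80293848, plus strand, exon 3, coding sequence: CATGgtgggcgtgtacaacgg
Rps6, chr4:86856267-86856287, minus strand, exon 3, coding sequence: CATGgcagagtgcgcctgctg
*Rpsa*, also known as the laminin receptor, had 3327 own tags in GC-1spg against 6903 in GC-2spd (ts), giving a log2 ratio of 1.15 (1.09 to 1.21). The tag above gave 3134 and 6684 of these, while another *Rpsa* tag, farther from the 3′ end, had 92 and 105 copies. Its tag in the 3′ UTR, at the CATG nearest the 3′ end, had 44 and 26 copies and a negative log2 ratio, -0.66.

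*Rps15* had 2597 and 5471 own tags (log2 ratio 1.18, interval 1.11 to 1.24). Its main tag had 2318 and 5138 copies, and a tag farther upstream 227 and 198. *Rps6*, the target of the S6 kinases, had 606 and 1266 own tags (log2 ratio 1.16, interval 1.02 to 1.31), its main tag 556 and 1183. In each of the 3 genes the main tag was higher in GC-2spd (ts). All 3 ratios fell just under the 2-fold threshold with TMM scaling, to 0.98 for *Rpsa*, 0.999 for *Rps15* and 0.99 for *Rps6*. When pseudogene transcripts were kept in the reference, which leaves fewer tags as own, the log2 ratio was -0.87 for *Rpsa* and -0.08 for *Rps15*, and the calls were lost. In edgeR's exact test all 3 calls held with an assumed biological coefficient of variation of 0.1 and were lost at 0.2 and 0.4.

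The remaining calls by own tags rested on minor tags of genes whose main tag is shared. *Rpl32* was called lower from 39 and 9 own tags (log2 ratio -2.01, interval -3.25 to -0.94). Its main tag, which also matches the antisense strand of *Cand2*, had 11435 and 17118 copies, and the combined log2 ratio was 0.68 (0.64 to 0.71), the opposite direction. *Rpl41*, the shortest ribosomal protein, was called higher from 49 and 108 own tags, at 1.24 (0.74 to 1.76). Its main tag, shared with *Gm10076*, had 6384 and 6161 copies, and the combined log2 ratio was 0.06 (0.01 to 0.11).

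*Rpl13a*, which leaves the ribosome in the interferon response of myeloid cells, was called lower from 746 and 298 own tags (log2 ratio -1.22, interval -1.42 to -1.03). The tag it shares with *Gm45713* had 6082 and 4113 copies, and the combined ratio was -0.54 (-0.59 to -0.48). *Rplp1* was called lower from 138 and 56 own tags, at -1.20 (-1.67 to -0.74). The tag it shares with *Gm10073* had 28717 and 25686 copies, and the combined ratio was -0.06 (-0.09 to -0.04). None of these 4 genes was called by the combined count.

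With the combined count 5 genes were called higher, where 11.6% of 14515 genes were, and 1 was called lower, where 7.94% were. With TMM scaling the split was 1 higher and 3 lower, against 8.82% and 10.1% of all genes, the lower ones being *Rps28*, *Rps16* and *Rpl26*. *Rps10*, of the small subunit, was called beside the 3 genes above. It had 2531 and 6612 tags (log2 ratio 1.49, interval 1.42 to 1.55), nearly all from 1 tag that is shared with the read-through transcript *RPS10-NUDT3* at the same locus. It alone of the 5 stayed above 2-fold with TMM scaling, at 1.31.
Rps10, chr17:27634230-27634332, minus strand, across exons 2 and 3, coding sequence: CATGcagtctctcaagtctcg
At the FDR alone, 27 of the 81 genes were higher and 37 lower, against 20.3% and 13.2% of all genes. Of the 10 genes called by own tags, 3 were called in the same direction by the combined count.

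**Figure D4:**
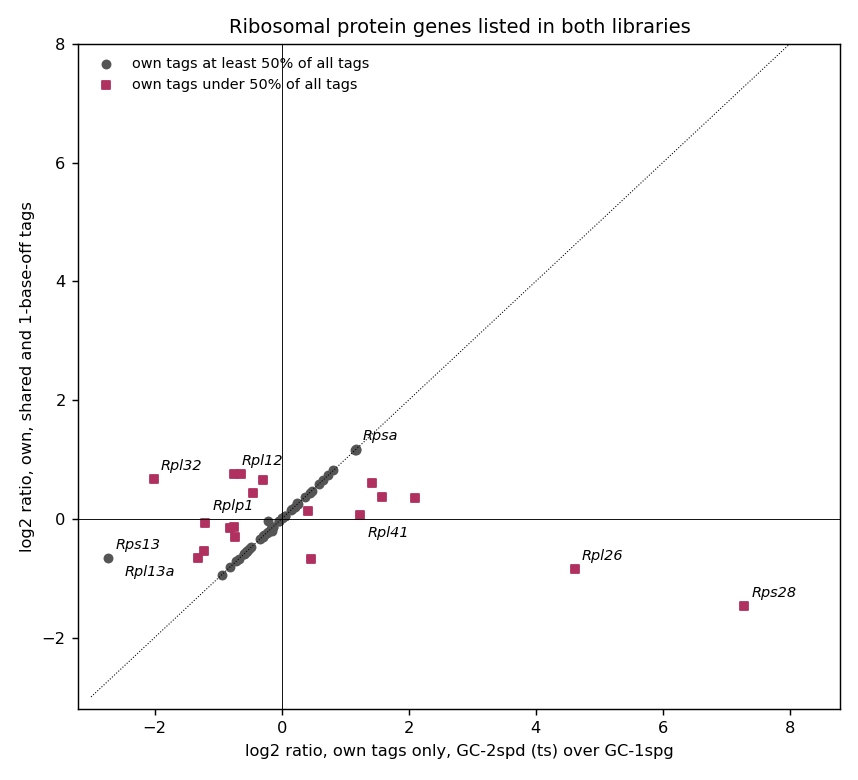
Log2 ratio of TPM, GC-2spd (ts) over GC-1spg, by own tags (horizontal axis) and by the combined count (vertical axis), for 65 ribosomal protein genes listed in both libraries; grey circles, own tags at least 50% of the combined count; red squares, under 50%; dotted line, equal values. Genes measured mostly by own tags lie close to the dotted line except Rps13, and the squares, Rps28 and Rpl26 among them, scatter away from it.

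The subunits are given by the combined count. Of 48 large subunit genes with at least 100 tags all 48 lay within 2-fold, and 0 were called, while 12 were higher and 27 lower at the FDR alone. Of 30 small subunit genes 24 lay within 2-fold, 5 were called higher and 1 lower, and 15 were higher and 10 lower at the FDR alone. Of all genes with at least 100 tags 75.8% lay within 2-fold, so that the 80% of the small subunit within 2-fold was near the share of all genes. Of all genes 11.6% were called higher and 7.94% lower, and 20.3% and 13.2% were higher and lower at the FDR alone. By own tags 2 of 46 listed large subunit genes were called higher and 3 lower. Of 27 listed small subunit genes 4 were called higher and 1 lower, where 11.8% and 7.93% of all genes were. With TMM scaling 47 of the 48 and 27 of the 30 lay within 2-fold, against 76.7% of all genes with at least 100 tags. The genes compared were not matched by level. The median log2 ratio was -0.18 for 49 large subunit genes and 0.14 for 30 small subunit genes, and with TMM scaling it was -0.36 and -0.04, so that the small subunit median changed sign. Summed over the genes, the large subunit had 67624 TPM in GC-1spg against 61698 TPM in GC-2spd (ts), and the small subunit 31887 and 34058 TPM.

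**Figure D5:**
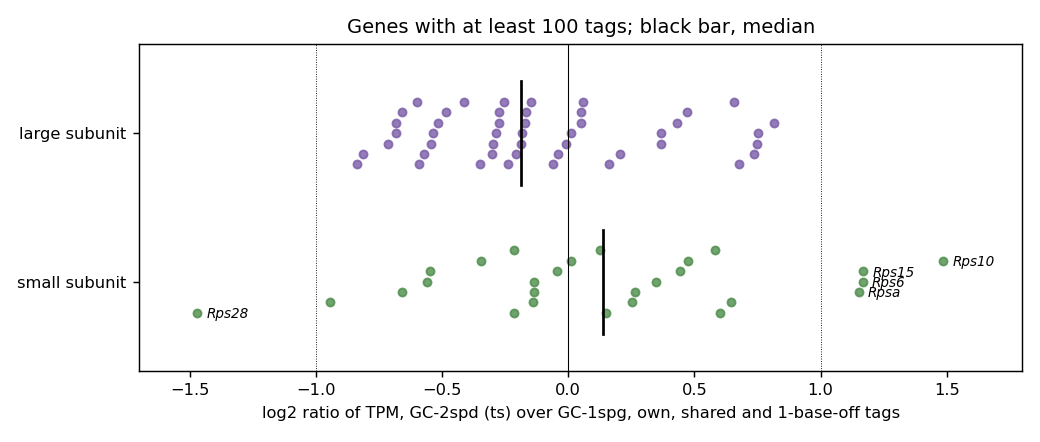
Log2 ratio of TPM, GC-2spd (ts) over GC-1spg, by the combined count (horizontal axis) for 47 large and 27 small subunit genes with at least 100 tags; each point is 1 gene, spread vertically for sight; black bars, medians of all 48 and 30 genes of that depth; dotted lines, 2-fold. All large subunit points lie within the dotted lines, and Rps28 on the left and Rps10, Rps15, Rps6 and Rpsa on the right lie outside; with TMM scaling all points shift left by 0.18 and the small subunit median becomes negative.

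Of 9 of the 10 genes with the highest mean level by own tags, the log2 ratio was -0.30 for *Rpl19*, -0.51 for *Rpl30*, -0.04 for *Rps29*, -0.55 for *Rps20* and -0.21 for *Rps27a*. It was -0.54 for *Rpl28*, -0.48 for *Rpl11*, -0.29 for *Rpl27a* and 0.16 for *Rpl17*. None of these 9 was called, and that of *Rpl17* was the 1 positive value among them. With TMM scaling it became -0.02, and with pseudogene transcripts kept -0.90. *Rps27a* is made as a fusion with ubiquitin, and had 13223 and 10626 own tags.

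The P stalk, the lateral arm of the large subunit that binds the elongation factors, is made of *Rplp0*, *Rplp1* and *Rplp2* on *Rpl12*. *Rplp0* had 5979 and 3516 own tags (log2 ratio -0.66, interval -0.72 to -0.60), while *Rplp2* was measured by a tag shared with *Wdr89*, with 19545 and 18245 copies, and its combined ratio was -0.01 (-0.04 to 0.02). *Rpl12* had 9 and 5 own tags. Its combined count was 7015 and 11021, at 0.75 (0.71 to 0.80), from a tag shared with *Gm10275*. None of the 4 was called by the combined count. The direction of *Rplp0* depends on the tags counted, since it turned to 1.55 when pseudogene transcripts were kept in the reference, which leaves fewer tags as own. *Rpl12* stood at -0.75 by its few own tags, with an interval of -2.67 to 0.99, so they give it no direction.

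*Rpl5* and *Rpl11* form the particle with the 5S RNA that can bind *Mdm2* and so stabilise p53. *Rpl11* had 10224 and 6821 own tags (log2 ratio -0.48, interval -0.53 to -0.44). *Rpl5* had 2 and 0 own tags, and 7258 and 5947 by the combined count, at -0.19 (-0.24 to -0.14). Of the 3 genes listed for this signal, *Trp53* was called higher, with 718 tags or 142 TPM in GC-1spg against 26674 tags or 5643 TPM in GC-2spd (ts). The source of these *Trp53* tags, and any link of their count to the particle, was not tested. *Mdm2*, at 268 and 281 tags, and *Cdkn1a*, at 18 and 11 tags, were not called.

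Paralogues were compared by own tags. *Rpl3* of the peptidyl transferase centre had 6246 and 3314 tags (log2 ratio -0.81, interval -0.87 to -0.75), and its muscle paralogue *Rpl3l* was not listed. *Rpl22* had 2093 and 3434 tags, at 0.82 (0.74 to 0.90), and *Rpl22l1* 247 and 207, at -0.15 (-0.43 to 0.12). The intervals of this pair do not overlap, but with pseudogene transcripts kept the ratio of *Rpl22* turned to -0.72. *Rpl7* had 5126 and 4649 tags, at -0.04 (-0.10 to 0.02), and *Rpl7l1* 894 and 550, at -0.60 (-0.75 to -0.44). *Rps27l*, a p53-responsive paralogue, had 749 and 775 tags, while the 4362 and 3306 tags of *Rps27* were shared with *Rps27rt* and could be given to neither. Among the uncalled genes with at least 100 own tags *Rps16* had the lowest ratio, with 1004 and 487 own tags and a log2 ratio of -0.94 (-1.10 to -0.78), which was -1.12, past the 2-fold threshold, with TMM scaling and turned to 0.10 with pseudogene transcripts kept.

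The germ cell paralogues *Rpl10l* and *Rpl39l* had reference tags of their own, 7 and 3, and none was listed in either library, own or shared. A count of 0 allows up to 3 counts, 0.591 TPM in GC-1spg against 0.635 TPM in GC-2spd (ts), and since single copy tags were removed before deposit, a gene with 1 copy of a tag would also be absent. Their X-linked counterparts were present: *Rpl39* had 3015 and 2833 own tags, at 594 and 599 TPM, and *Rpl10* 1892 and 1457 combined tags, nearly all shared with *Rpl10-ps3*. Of the other X-linked genes, *Rpl36a* had 1161 and 1703 own tags (log2 ratio 0.65, interval 0.55 to 0.76), and *Rps4x* 102 and 96, at 0.01 (-0.40 to 0.43). None of the 4 was called.

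The 12 genes without a listed own tag fell into 2 kinds. For 3 of them, *Rpl35* and *Rps27rt* included, every reference tag is shared. For the other 9, among them *Rpl10l*, *Rpl29*, *Rpl36al*, *Rpl39l*, *Rpl3l*, *Rps21*, *Rps26* and *Rps27*, an own tag exists in some transcript and was not listed. Shared tags gave 6845 and 5006 copies for *Rpl35*, 3490 and 2863 for *Rpl29*, 4305 and 5571 for *Rps26* and 1544 and 1082 for *Rpl36al*. None of these 4 was called by the combined count.

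Single-base versions of a tag at the usual site were also looked for. A tag 1 base from the main tag of *Rpl22*, T7C, had 0 copies in GC-1spg against 239 in GC-2spd (ts), beside 2028 and 3140 copies of the reference tag.
Rpl22 reference tag, chr4:152327567-152330005, across exons 2 and 3, coding sequence: CATGgatgctgccaattttga
Rpl22 tag with T7C: CATGgacgctgccaattttga
A tag that differs from the main tag of *Rplp1* by C10T had 24 copies in GC-1spg against 5114 in GC-2spd (ts), 19.9% of the 25686 copies of the *Rplp1* tag there. It matches *Gm5244* exactly and is in neither count of *Rplp1*.
Rplp1 reference tag, chr9:61913328-61913348, coding sequence: CATGggcttcggtctttttga
Tag with C10T: CATGggctttggtctttttga
Exchanges between the libraries were also seen at minor sites of *Rpl15*, *Rps2* and *Rplp0*, named after their values were seen. In *Rpl15* a T20C tag had 82 copies in GC-1spg against 0, and the reference tag 0 against 68. In *Rps2* G7A had 73 against 0, and the reference tag 0 against 117, both shared with *Rps2-ps10*. In *Rplp0* T16C, shared with *Gm5779* and *Gucd1*, had 86 against 0, and the reference tag 0 against 187. Why these tags differ was not tested. Across the 55 genes with at least 100 own tags, a median of 1.32% of the own tags carried 1 mismatch, and for 36 the main tag sat at the last CATG of the transcript used.

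The pyrimidine run was looked for at the start sites, which the choice of genes did not use. RefSeq starts (GRCm38) were held for 65 of the 85 genes, 77 starts in all. A run of a C followed by at least 4 bases that are each C or T, on the sense strand and beginning within 5 bases of the start, stood at 32 of these 77 starts (41.6%), and at 18.3% of the 32851 starts of all genes. Exactly at the start it stood at 18.2% against 2.51%. The stretches cover 10 bases before to 20 bases from the start, with the run in capitals where it was found, for 2 genes with it and 2 without it among those called.
Rps6, chr4:86857348-86857377, minus strand: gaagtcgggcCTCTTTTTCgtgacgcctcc
Rps10, chr17:27635225-27635254, minus strand: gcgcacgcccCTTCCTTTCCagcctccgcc
Rps15, chr10:80292421-80292450, plus strand: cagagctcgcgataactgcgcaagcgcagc
Rpsa, chr9:120127756-120127785, plus strand: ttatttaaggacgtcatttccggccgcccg
All 4 were called higher by the combined count, and the run stood at the listed start of 2 of them.

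Other genes of translation were described by own tags. For comparison, 11.8% of all 14336 genes were called higher and 7.93% lower, and 20.5% and 13.1% were higher and lower at the FDR alone. Of the ribosomal proteins outside the symbol rule *Fau* was called lower, with 16767 and 7540 tags and a log2 ratio of -1.05 (-1.09 to -1.01), and *Rack1* had 8270 and 5018 tags at -0.62 and was not called. Of 9 listed elongation factors, *Eif5a2* was called higher (34 and 108 tags, 1.77) and *Eef1b2* lower (1152 and 356 tags, -1.59), and *Eef1a1*, which brings tRNA to the ribosome, had 12389 and 14338 tags. Of 16 other mRNAs known for a pyrimidine start, *Vim* was called higher (984 and 2897 tags, 1.66) and *Eif3h* lower (2076 and 912 tags, -1.08), 6 were higher and 9 lower at the FDR, and the median log2 ratio was -0.23.

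Of the 15 genes that control translation of ribosomal protein mRNAs 2 were called higher, the mTORC1 inhibitor *Tsc2* (246 and 517 tags, 1.17) and the kinase *Rps6ka3* (155 and 339 tags, 1.23), and 0 lower. Their 13.3% called higher lay near the 11.8% of all genes. *Larp1*, which binds the pyrimidine start, had 1059 and 730 tags at -0.44. Of 76 listed mitochondrial ribosomal protein genes 2 were called higher (2.63%) and 3 lower (3.95%), with a median of -0.02. Both shares lay below those of all genes. Among those called were *Mrpl16* (13 and 446 tags, 5.20), *Mrpl19* (132 and 20 tags, -2.62) and *Mrpl33* (6745 and 1083 tags, -2.54). With sense matches preferred *Mrpl19* had 154 and 80 tags, so its ratio depends on the tags counted, while the counts of *Mrpl16* and *Mrpl33* stayed the same. Of 52 listed genes taken as initiation factors by the symbols *Eif1* to *Eif6*, 6 were called higher (11.5%) and 3 lower (5.77%). Among all genes the shares were 11.8% and 7.93%. Their median was 0.02, which TMM scaling turned to -0.16. Chosen by symbol, this list also holds regulators and overlaps the other lists. *Eif5a2* is also counted among the elongation factors, and *Eif3h* among the mRNAs with a pyrimidine start. All these medians lie below the 0.17 of all genes except that of the control genes, at 0.55, and that of the elongation factors, at 0.31.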

How the data were processed

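The deposited files hold 1 library per cell line with the count (copy number) of each distinct 21-base tag. The authors removed adaptor tags, tags with N and tags with a single copy before deposit. The TPM column deposited beside the counts is copies scaled to the clean tags of the library; gene TPM was computed here from the counts over the same total. The authors matched tags to UniGene; for the matching tool the sources used here give no name.

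Tags were matched to GENCODE release M21 transcripts (GRCm38) at every CATG with at most 1 mismatch, without pseudogene transcripts, and sense tags of 1 gene were summed. A gene at 0 was set to 0.01 TPM for its call. Calls used the two-sided Audic-Claverie test with Benjamini-Hochberg adjustment over 14336 genes, with the thresholds of the study, FDR up to 0.001 and a 2-fold difference in TPM. edgeR's quasi-likelihood test could not be fitted with 1 library per line. Intervals are exact 95% conditional binomial intervals. A single copy equals 0.197 TPM for GC-1spg and 0.212 TPM for GC-2spd (ts).

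The members and lists were chosen with earlier results of these data known. Named were all called members, the 10 with the highest mean level, the 5 largest ratios either way where 100 tags or more were counted, and paralogues, P stalk, 5S particle, X-linked and ubiquitin fusion genes. Alternatives changed the matching, the tags summed, the scaling, the filter on low counts, the treatment of zeros and the test; adding tags 1 base from CATG, alone or with shared tags, was chosen after seeing the data. Promoter starts are from RefSeq (GRCm38). Results of 5 genes are not reported here by name; counts and medians over lists include them, and plots leave them out. The scripts were tested on simulated data. Python 3.11.15, pandas 2.3.3, scipy 1.17.1, R 4.3.3 and edgeR 4.0.16 were used.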

Additional observations from a re-analysis of the deposited data

Results flagged for a closer look

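Tags that matched no transcript, and so entered no count of own tags, were the reason for 3 entries. The tag 1 base from a CATG site of *Rpl26* had 5879 copies in GC-1spg against 0 in GC-2spd (ts). That of *Rps28* had 7789 copies in GC-1spg against 5 in GC-2spd (ts). That of *Rps13* had 1295 copies in GC-2spd (ts) and 0 in GC-1spg. All 3 lie above the 3 copies that a count of 0 allows.

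Tags 1 base from a usual tag were the reason for the other 2 entries. That of *Rplp1*, C10T, had 5114 copies in GC-2spd (ts) and 24 in GC-1spg, and it matches *Gm5244* exactly. That of *Rpl37a*, a large subunit protein, T19G, had 104 copies in GC-2spd (ts), or 7.36% of the usual tag, and 43 in GC-1spg, or 3.79%. With 1 library per line, none of these differences has a replicate check.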

How the results depend on the processing

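No paired analysis was possible because each line has 1 library. Of the 73 listed genes, own tags gave 6 called higher and 4 lower, and 18 higher and 25 lower at the FDR alone. Of all genes 11.8% and 7.93% were called, and 20.5% and 13.1% were higher and lower at the FDR alone. The median log2 ratio was -0.15 and the summed log2 ratio -0.10. A setting can change the number of members listed and the share of all genes called. The counts below are therefore not results about the family alone. With pseudogene transcripts kept, 2 were called higher, 5 were higher and 12 lower at the FDR, the median was -0.31 and the sum -0.12. With TMM scaling 3 were called higher, where 9.01% of all genes were, the median was -0.33 and the sum -0.27. With shared tags given to the ribosomal protein gene 1 was called lower, 29 were higher at the FDR, the median was -0.062 and the sum -0.041, and with tags 1 base from CATG added as well 1 was called lower and the sum was -0.055. With only the CATG site nearest the 3′ end 2 were called lower and the sum was -0.050, and with predicted genes left out 2 were called lower and the sum was -0.027. The sum was -0.062 with sense matches preferred, -0.059 with poly(A) added, -0.16 with tags 1 base from CATG alone, -0.085 with the most abundant tag of each gene, and -0.18 scaled to unambiguous sense tags. edgeR's exact test gave 7 higher and 5 lower at the FDR with an assumed biological coefficient of variation of 0.1; at 0.2 it called 2 higher and 1 lower, the same numbers as at the FDR alone, and at 0.4 it called 2 higher and 0 lower, again also at the FDR alone. No value of that coefficient can be estimated from these libraries.

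Single genes changed sign as follows. With pseudogene transcripts kept, the log2 ratio was -0.90 for *Rpl17* and *Rpl39*, -0.72 for *Rpl22*, 1.55 for *Rplp0*, -0.085 for *Rps15*, 0.10 for *Rps16*, -0.52 for *Rps4x* and -0.87 for *Rpsa*. With TMM scaling it was -0.016 for *Rpl17*, -0.17 for *Rpl39*, -0.027 for *Rps27l* and -0.16 for *Rps4x*, and scaled to unambiguous sense tags -0.069 for *Rpl39* and -0.066 for *Rps4x*. *Rpl12* turned to 0.75 with shared tags given, alone or with tags 1 base from CATG, and with predicted genes left out, and to 0.69 with the most abundant tag. *Rpl32* turned to 0.68 with the site nearest the 3′ end, with sense matches preferred and with shared tags given, alone or with tags 1 base from CATG. *Rplp1* turned to 0.19 with predicted genes left out, and *Rpl17* to -0.90 with the site nearest the 3′ end. *Rpl26* turned to -0.84 and *Rps28* to -1.47 in both settings that add tags 1 base from CATG. The cause of these changes was not tested beyond the tags each setting counts. Exact matches alone, the exact binomial test and 0.5 tags added to both counts changed no direction or call of the 31 named genes. Neither did the filter of at least 10 tags nor poly(A) added to transcripts.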
